A study of Mus musculus with 9 samples.

Results

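The genes described here build, bind or cut the extracellular matrix: collagens, laminins and nidogens, matrix glycoproteins, integrins, matrix proteases with their inhibitors, and lysyl oxidases. They were chosen by symbol, with a pattern that takes collagen chains, laminin chains, integrin subunits, Fn1, nidogens, Hspg2, Sparc, thrombospondins, TIMPs, MMPs, ADAMTS proteases and lysyl oxidases. In the table of both fatty acid groups the pattern found 61 of 10259 genes, with 81 listed transcripts. Of these, 57 are genes of the matrix, its proteases and inhibitors, or integrins. The other 4 symbols (Col4a3bp, Itgb1bp1, Itgb1bp2 and Itgb3bp) begin like a member but name other proteins. They were kept because the pattern takes them. Fn1, Hspg2 and Nid2 were not analysed here.

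RNA was sequenced from AML12 cells, an established mouse hepatocyte line that comes, as background, from a mouse carrying a human TGF-alpha transgene. Ang(1-7) cells were given the peptide Ang(1-7) at 100 nM, and 30 min later the fatty acids PA (0.2 mM) and OA (0.4 mM) for 24 h. PA and OA are taken to be palmitic and oleic acid. Ang(1-7) is a product of the renin-angiotensin system. PA/OA cells were given the same fatty acids for 24 h without the peptide, to model fatty hepatocytes, and control cells were left untreated. Each group had 3 samples of this 1 line. The labels name neither a group given the fatty acid carrier alone nor a group given Ang(1-7) alone. Nor do they state that samples of a group were grown separately, so p-values here refer to the spread among these samples, some or all of which may be technical.

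Hepatocytes rest on a thin matrix in the space that faces the liver sinusoids. Basement membranes are sheets of type IV collagen and laminin, bridged by nidogen, and interstitial matrix is built on fibrillar collagens. Integrins are pairs of an alpha and a beta subunit that hold cells to these proteins. Matrix metalloproteinases cut matrix and TIMPs inhibit them, and in the injured liver most fibrillar collagen is known to come from activated stellate cells rather than from hepatocytes.

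The deposited counts are whole reads per transcript, summed here per gene, from a separate table for every pair of groups. Listed counts per sample ranged from 24759184 to 28704499 in the table of Ang(1-7) and PA/OA cells, and from 26576151 to 27357654 in control cells. The tables with controls listed only transcripts of higher level, so 31 members could be compared between PA/OA and control cells and 30 between Ang(1-7) and control cells. Levels are given as CPM, counts per 1000000 after scaling of library totals within a table. One library, Ang(1-7) 2, stood apart: across genes its log2(CPM + 1) values correlated with those of the other fatty acid libraries at 0.957 to 0.963, against at least 0.983 between any pair of the others. Genes of the hepatocyte list were present, with 15627, 24120 and 17959 counts of Trf, the transferrin gene, in Ang(1-7) cells, 18142, 17068 and 15270 in PA/OA cells, and 13356, 11934 and 14074 in control cells. Alb, the albumin gene, was low, with 151, 550 and 122 counts in Ang(1-7) cells, 208, 151 and 80 in PA/OA cells, and 325, 247 and 172 in control cells. The bile duct keratin Krt7 had 21887 to 24556 counts in Ang(1-7) cells, 22500 to 26199 in PA/OA cells and 29172 to 30645 in control cells, so transcripts of both epithelial types of the liver were listed.

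Levels can be compared between members only per length, and 21 members of the tables with controls had 1 listed transcript of known length. In control cells Itgb1, the beta subunit that most collagen and laminin receptors share, was highest with 740 ± 30.6 CPM per kilobase. Timp2, an inhibitor of MMPs that also takes part in pro-MMP2 activation, followed with 178 ± 10.9 CPM per kilobase (SD, n = 3, here and for the other levels). The type IV collagen chain Col4a2 with 131 ± 5.70 and the membrane-bound protease Mmp14 with 121 ± 6.93 CPM per kilobase overlapped between samples. Below them stood Itga2 with 73.6 ± 3.33, the laminin gamma chain Lamc1 with 65.4 ± 5.12, the protease Adamts1 with 37.5 ± 2.70 and Itga1 with 28.0 ± 2.33 CPM per kilobase, with no overlap between neighbours. Sparc, a collagen-binding glycoprotein, with 14.7 ± 3.97 and Col6a1 with 14.1 ± 0.43 CPM per kilobase overlapped. The other 11 of the 21 lay between 3.75 CPM per kilobase for Mmp13 and 0.235 for Col12a1. Among these 21 members, the highest per length in controls were the common integrin beta subunit, an MMP inhibitor, a basement membrane collagen and a membrane protease. No fibrillar collagen was listed. The members named here from Itgb1 down to Itga1, and also Col6a1 and Mmp13, each have 1 transcript in the RefSeq annotation. Sparc and Col12a1 have 3 each, and some of the members not named here also have more than 1. The places of all these in the order are therefore uncertain. The part of the annotation in the order was not tested.

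Between PA/OA and control cells, 5 members rose and none fell: the collagen receptor subunits Itga2 and Itga1, the microfibril collagen Col6a1, the laminin chain Lamc1 and the protease Mmp14. These were 16.1% of the 31 members tested, where 2.82% of all 6213 genes were called higher and 5.05% were called in either direction (edgeR quasi-likelihood test, adjusted p under 0.05). In bulk samples, fewer cells of a type and less RNA per cell cannot be told apart. The log2 fold change was above 0 in 25 of the 31, against 52.0% of all genes, with a median of 0.28 over the members and 0.01 over all genes. The groups did not overlap, with PA/OA higher, in 11 members or 35.5%, against 12.2% of all genes, and with PA/OA lower in 1 member, Col18a1, or 3.23%, against 11.6% of all genes. The count of 5 was 2 when control 1 was left out and 3 when control 3 or PA/OA 2 was. All 5 called members had a mean of at least 1000 counts. At that level, a bound chosen after the values were seen, 5 of 10 members were called, and of 2596 genes 5.05% were called higher and 9.9% in either direction.

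**Figure D1:**
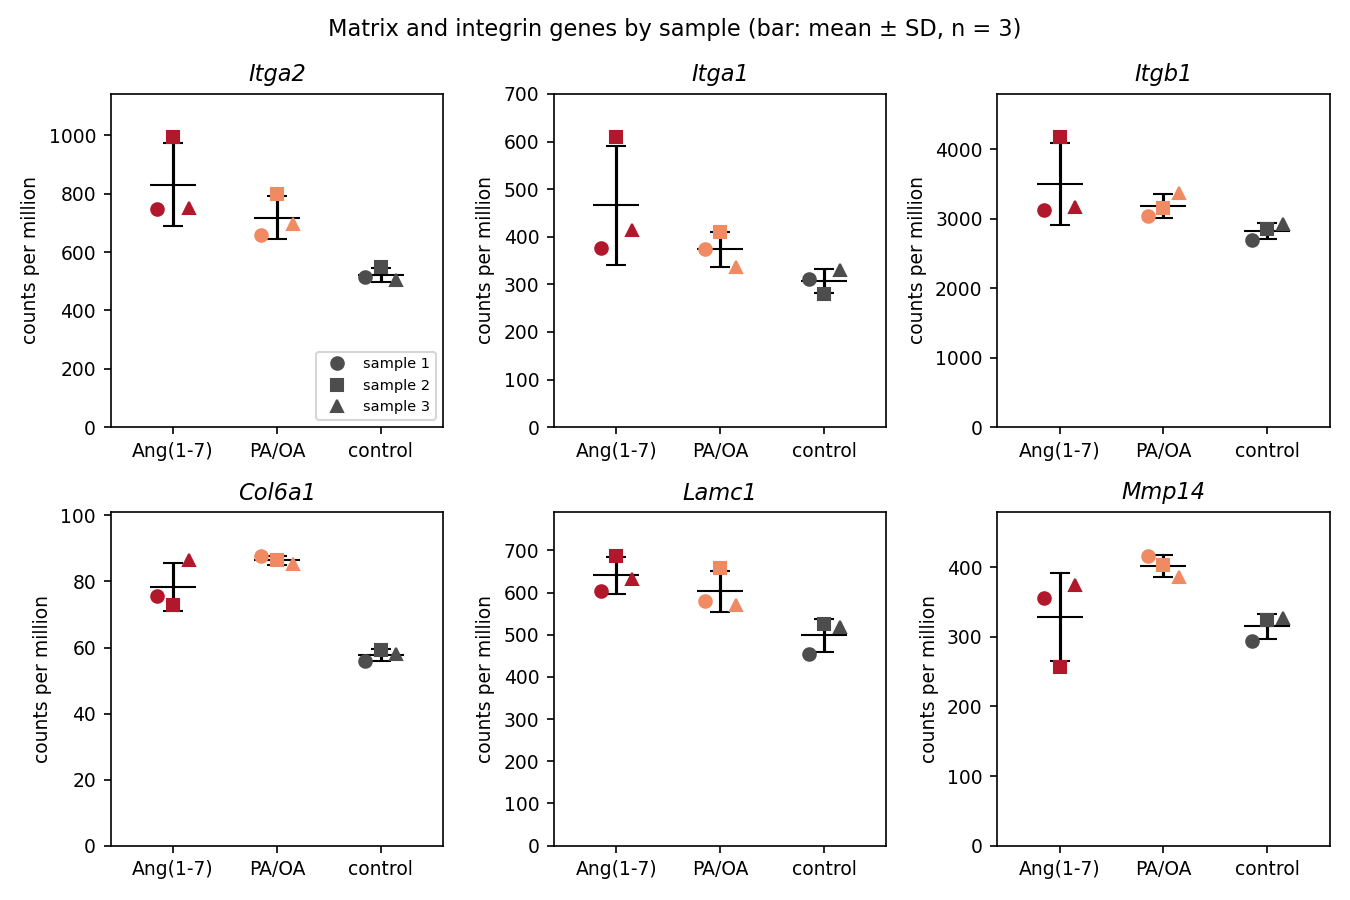
Level of 6 genes in CPM in each sample of the 3 groups, with the mean and SD as bars (n = 3). Ang(1-7) values come from the table with controls, and PA/OA and control values from the table of that pair, scaled separately. All 6 genes were higher in every PA/OA sample than in every control sample, and Ang(1-7) 2 was the highest sample for Itga2, Itga1, Itgb1 and Lamc1 and the lowest Ang(1-7) sample for Col6a1 and Mmp14.

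Itga2 pairs with Itgb1 as a receptor for collagen and laminin. It had 658, 799 and 698 CPM in PA/OA cells, against 514, 550 and 504 CPM in control cells. Every PA/OA sample was above every control sample. The difference was 0.46 ± 0.07 on the log2 scale (standard error), with an adjusted p of 0.000677 by the edgeR quasi-likelihood test, and it was called in 6 of 6 fits that each left out 1 sample.

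Itga1 also pairs with Itgb1, as a receptor with a preference for type IV and other collagens. It had 374, 409 and 337 CPM in PA/OA cells, against 311, 279 and 330 CPM in control cells. The groups were apart by a small margin, with the lowest PA/OA sample just above the highest control sample. The difference was 0.28 ± 0.08 (log2) with an adjusted p of 0.0499 in edgeR. It was called in 1 of 6 fits that left out a sample, the fit without PA/OA 3, and adjusted p ranged from 0.0442 to 0.261 over the 6. Itga1 also encloses another gene, Pelo, in the RefSeq annotation, and how the authors' counting treated reads shared by overlapping genes is not given in the sources used here.

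Col6a1 is a chain of type VI collagen, which forms beaded filaments beside basement membranes. It had 87.9, 86.4 and 85.2 CPM in PA/OA cells, against 55.8, 59.3 and 58.1 CPM in control cells. Samples of a group lay close together, and the gap between the groups was several times the range within either. The log2 difference was 0.58 ± 0.11 with an adjusted p of 0.00357 in edgeR, called in 6 of 6 fits that left out a sample.

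Lamc1 is the gamma chain found in most laminins. It had 580, 658 and 570 CPM in PA/OA cells, against 454, 525 and 518 CPM in control cells. All PA/OA samples were above all control samples. The log2 difference was 0.27 ± 0.07 with an adjusted p of 0.0382 in edgeR. The call was lost in 4 of the 6 fits that left out a sample, with an edgeR adjusted p of 0.191 when control 1 was left out, 0.0641 for control 3, 0.210 for PA/OA 2 and 0.0577 for PA/OA 3.

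Mmp14 is a membrane-bound metalloproteinase that cuts collagen and activates pro-MMP2. It had 417, 403 and 386 CPM in PA/OA cells, against 294, 325 and 326 CPM in control cells. The groups did not overlap. The log2 difference was 0.35 ± 0.07 with an adjusted p of 0.00631 in edgeR, and of the 6 fits that left out a sample, the one without control 1 lost the call (0.0637). In 1 fit over all 9 samples, on the transcripts that all 3 tables list, none of the 5 members was called. Of all 6033 genes in that fit, 33 or 0.547% were called. There the edgeR adjusted p was 0.0515 for Col6a1, 0.239 for Itga2, 0.383 for Mmp14 and Lamc1 and 0.629 for Itga1, with log2 differences of 0.59, 0.46, 0.35, 0.28 and 0.29.

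The start-site regions of the 4 called members that have an entry in the promoter table are printed because these genes rose together. They are RefSeq sequences of build GRCm38.p6, 250 bases before and 50 after the annotated start, in the direction of the gene, and 45 of the 61 members had an entry. Lamc1 is named only. Capitals mark an AP-1 motif (TGANTCA) or a GC box (GGGCGG), searched on both strands. The windows are chr13:114932051-114932350 on the minus strand for Itga2, chr13:115101915-115102214 on the minus strand for Itga1, chr10:76725995-76726294 on the minus strand for Col6a1 and chr14:54431348-54431647 on the plus strand for Mmp14.
Itga2: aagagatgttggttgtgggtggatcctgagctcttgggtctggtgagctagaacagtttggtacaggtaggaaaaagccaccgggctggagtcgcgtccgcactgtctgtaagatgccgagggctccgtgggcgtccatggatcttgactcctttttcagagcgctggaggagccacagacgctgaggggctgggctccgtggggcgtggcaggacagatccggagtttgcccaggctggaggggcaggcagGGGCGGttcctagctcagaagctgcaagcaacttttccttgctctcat
Itga1: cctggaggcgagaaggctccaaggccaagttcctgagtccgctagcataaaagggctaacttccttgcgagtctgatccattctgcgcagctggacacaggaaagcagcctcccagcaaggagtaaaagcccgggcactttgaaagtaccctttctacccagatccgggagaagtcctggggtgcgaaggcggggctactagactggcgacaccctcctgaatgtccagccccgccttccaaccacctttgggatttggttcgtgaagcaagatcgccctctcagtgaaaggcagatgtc
Col6a1: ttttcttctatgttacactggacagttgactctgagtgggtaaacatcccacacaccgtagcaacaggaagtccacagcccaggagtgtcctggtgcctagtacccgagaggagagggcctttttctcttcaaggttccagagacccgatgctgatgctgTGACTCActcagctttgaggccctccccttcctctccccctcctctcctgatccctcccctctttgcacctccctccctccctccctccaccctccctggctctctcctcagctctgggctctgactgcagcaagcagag
Mmp14: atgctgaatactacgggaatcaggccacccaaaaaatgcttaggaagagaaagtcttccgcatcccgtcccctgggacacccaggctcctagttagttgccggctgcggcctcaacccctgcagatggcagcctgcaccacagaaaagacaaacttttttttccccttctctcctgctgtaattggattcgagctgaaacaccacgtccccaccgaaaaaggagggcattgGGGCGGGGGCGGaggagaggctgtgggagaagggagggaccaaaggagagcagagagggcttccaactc

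Col6a1 held 1 AP-1 motif, TGACTCA, with its first base at -90 from the start. Mmp14 held 2 GC boxes that follow each other directly, and Itga2 held 1, just after its start. Itga1 held neither set of letters. AP-1 motifs stood in 7.79% of 32544 mouse promoters of the same length and in 4 of 45 member promoters (Col6a1, Itga3, Mmp10 and Mmp13). GC boxes stood in 35.9% of all promoters and in 26 of the 45. The 26 include Col4a1 and Col4a2, whose windows share a stretch that holds a GC box, so they are not separate stretches of sequence. TATAAA was in 13.6% of all promoters and 5 of the 45, and CATTCC, the core of TEAD sites, in 14.6% and 10 of the 45. The direct repeat of PPAR sites, AGGTCA and again AGGTCA with 1 base between, was in 0.0399% and in none of the 45. None of the 5 motifs lies within another. A match is a description of the sequence and not a bound site.

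Other members were apart between PA/OA and control cells without being called. Itgb1 had 3034, 3149 and 3363 CPM in PA/OA cells, against 2696, 2852 and 2925 CPM in control cells. Its log2 difference was 0.17 ± 0.05 with an adjusted p of 0.0665 in edgeR, and it was called without PA/OA 1 (adjusted p 0.0316). Itgav, the alpha subunit of receptors for RGD-bearing proteins such as vitronectin, had 15.3, 17.8 and 15.4 CPM in PA/OA cells, against 10.0, 11.8 and 8.12 CPM in control cells. Its log2 difference was 0.69 ± 0.24 (edgeR adjusted p 0.106), and DESeq2 called it (adjusted p 0.0453).

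Col12a1, a collagen that sits on the surface of fibrils, had 145, 208 and 166 counts in PA/OA cells, against 49, 139 and 29 counts in control cells. With a log2 difference of 1.31 ± 0.50 (edgeR adjusted p 0.137) it had the largest estimate of the 31 members, and its interval ran from 0.28 to 2.34. Without control 2 it was called, with a log2 difference of 2.19 ± 0.51 (edgeR adjusted p 0.0211). The collagenase Mmp13 differed by 0.69 ± 0.26 (adjusted p 0.142), the membrane-type Mmp24 by 0.84 ± 0.33 (0.155) and Timp2 by 0.14 ± 0.07 (0.258), all on the log2 scale by edgeR. Col18a1, the basement membrane collagen from which endostatin is cut, was the 1 member with all PA/OA samples below all controls, with 34.0, 40.1 and 37.8 CPM in PA/OA cells, against 42.2, 42.9 and 53.4 CPM in control cells. Its log2 difference was -0.31 ± 0.15 with an adjusted p of 0.260 in edgeR.

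**Figure D2:**
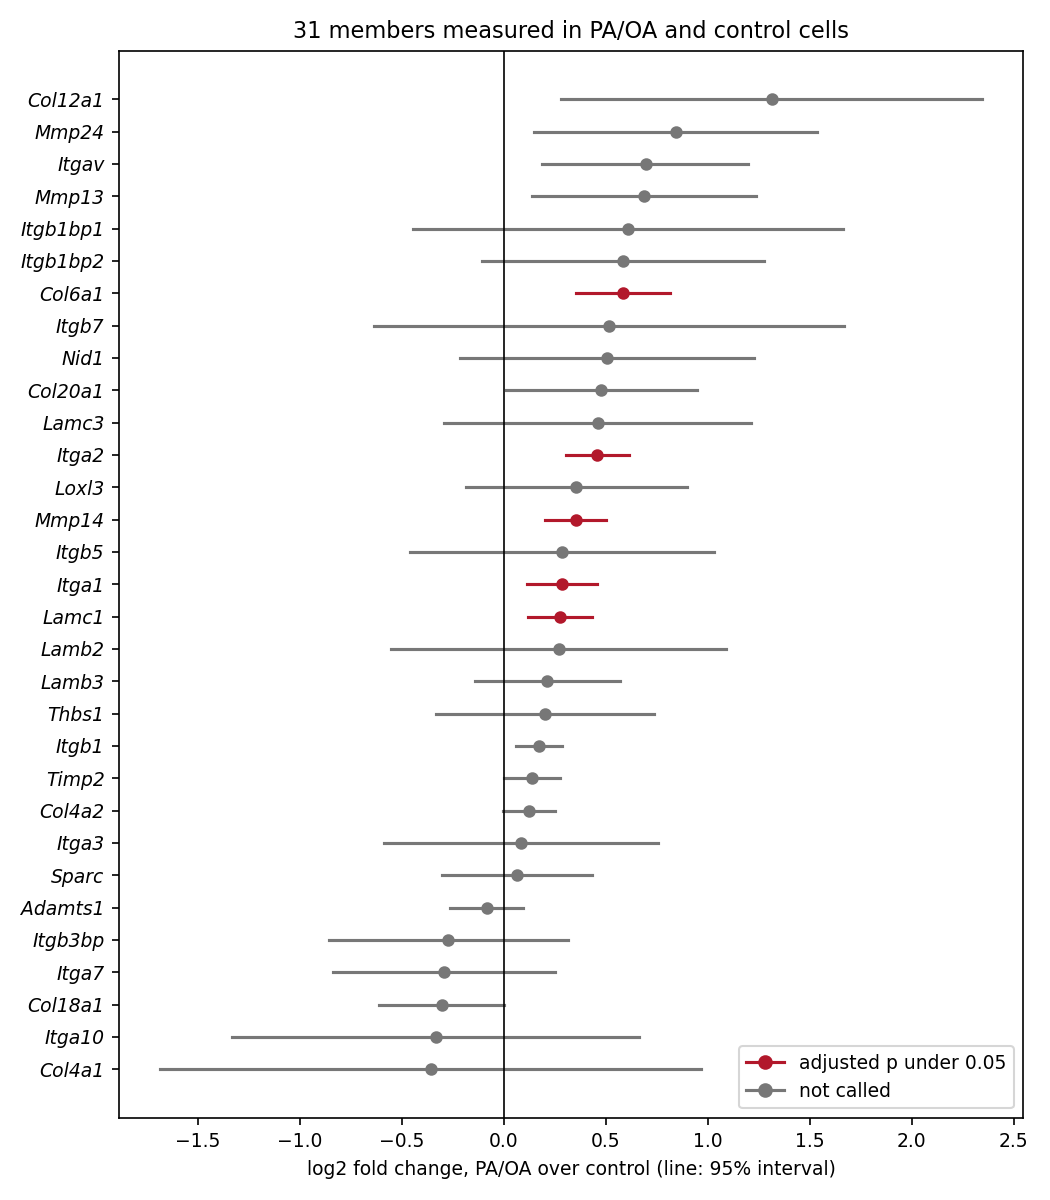
Log2 fold change of PA/OA over control for the 31 members in the table of that pair, with 95% intervals as lines and the 5 called members in red. Points lie right of 0 for 25 members, and the called ones are among those with the narrowest intervals.

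Type IV collagen had a pair of members of very unlike counts. Col4a2 had 951, 932 and 874 CPM in PA/OA cells, against 881, 808 and 846 CPM in control cells, and these ranges overlapped at 1 sample (log2 0.12 ± 0.06, edgeR adjusted p 0.295). Col4a1, whose protein joins Col4a2 in the same trimer, had 33, 52 and 129 counts in PA/OA cells, against 89, 177 and 20 counts in control cells. The Col4a1 samples were spread over several fold within each group. The 2 genes lie head to head, and their start-site windows share the 78 bases at chr8:11312777-11312854 (GRCm38.p6, plus strand), printed with the GC box in capitals because the counts of the genes differ so far.
Col4a1 and Col4a2 shared stretch: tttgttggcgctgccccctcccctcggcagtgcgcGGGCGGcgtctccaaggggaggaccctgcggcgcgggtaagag

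The members with the most counts were genes with 1 transcript in the RefSeq annotation, although the medians ran the other way. Col4a2 has 1 annotated transcript, and Col4a1 has 3, of which 1 predicted transcript was listed. Of the 30 matrix and integrin members with 1 annotated transcript, 9 had a mean of at least 1000 counts in the fatty acid groups, or 30.0%, and the highest mean was 87590. Of the 27 with at least 2, none did, and the highest mean was 894 counts. The median was 46.8 counts in the 30 and 90.7 counts in the 27. Over all genes of that table the shares at 1000 counts were 56.9% of 3051 and 10.7% of 6627, with medians of 1544 and 81.0 counts. How reads shared by transcripts of a gene were counted is not given in the sources used here, and its part in these levels was not tested. The levels of members with several transcripts, among them Col4a1, Itga3, Itga7, Itgav, Sparc and Col27a1, are therefore uncertain.

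**Figure D3:**
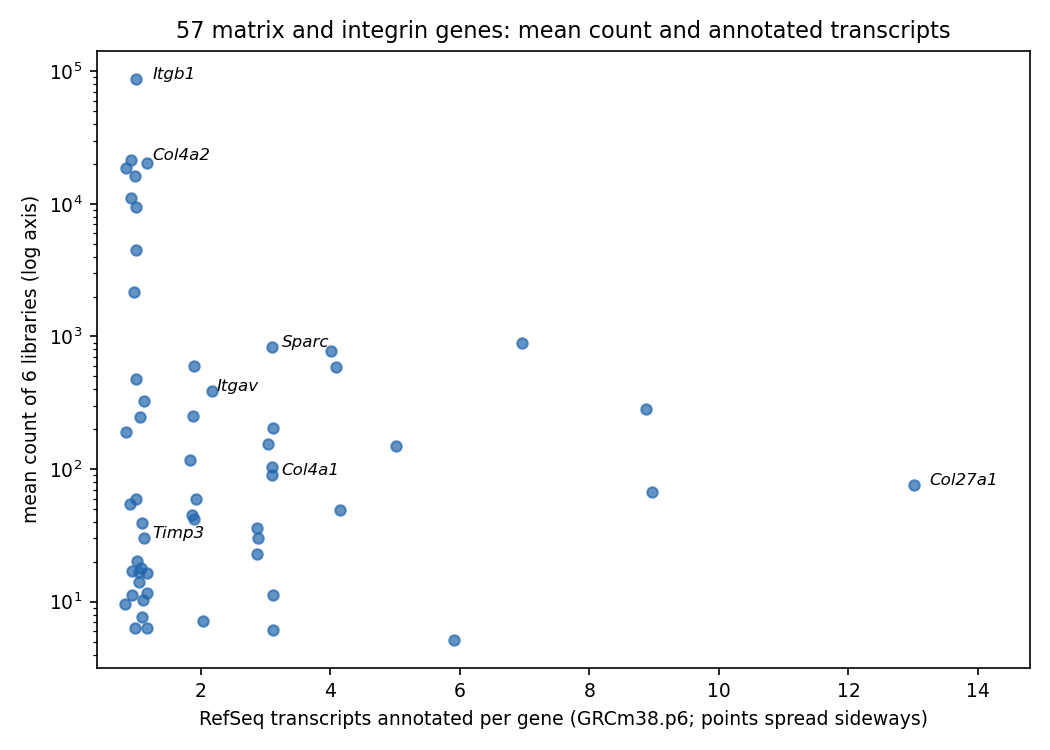
Mean count over the 6 fatty acid libraries (log axis) against the number of RefSeq transcripts annotated for each of 57 matrix and integrin genes. The 9 genes that average 1000 counts or more all have 1 annotated transcript, and genes with more stay at or below 894 counts.

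The remaining members tested in PA/OA against control were not called. Sparc had 34.0, 34.2 and 37.8 CPM in PA/OA cells, against 44.2, 29.7 and 27.4 CPM in control cells, with 1 control above and 2 below all PA/OA samples (log2 0.06 ± 0.18, edgeR adjusted p 0.897). Adamts1, a protease that cuts proteoglycans, had 180, 173 and 166 CPM in PA/OA cells, against 196, 169 and 185 CPM in control cells (log2 -0.09 ± 0.09, edgeR adjusted p 0.657). Loxl3, an enzyme of the lysyl oxidase family that cross-links collagen, had 13.5, 13.5 and 10.4 CPM in PA/OA cells, against 9.70, 11.1 and 8.32 CPM in control cells (log2 0.35 ± 0.26, edgeR adjusted p 0.501). These 3 genes overlapped between the groups.

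By class, all 5 laminin and nidogen genes tested had log2 differences above 0, as did all 3 integrin beta subunits, all 3 MMPs and all 3 collagens outside the fibrillar and basement membrane types. Of 3 basement membrane collagens 1 was above 0, with Col4a1 at -0.36 ± 0.64 and Col18a1, given above, also below. The 1 ADAMTS protease tested, Adamts1, was below 0. Beside Lamc1, the laminin chains Lamb3, Lamc3 and Lamb2 and the linker Nid1 differed by 0.21 ± 0.17, 0.46 ± 0.36, 0.27 ± 0.39 and 0.50 ± 0.34 on the log2 scale, and none was called. Among integrin alpha subunits 4 of 6 were above 0, with Itga3 at 0.08 ± 0.32, Itga7 at -0.29 ± 0.26 and Itga10 at -0.33 ± 0.48, and their samples overlapped. The beta subunits Itgb5 and Itgb7, with 6.59 ± 2.24 and 2.80 ± 1.20 CPM in PA/OA cells against 5.41 ± 0.60 and 1.95 ± 1.03 CPM in control cells, also overlapped. Col20a1 had 22.6, 24.0 and 31.3 CPM in PA/OA cells, against 23.6, 20.0 and 12.3 CPM in control cells (log2 0.48 ± 0.23, edgeR adjusted p 0.247). Of the other proteins that share a symbol stem with a member, Itgb1bp1, Itgb1bp2 and Itgb3bp were tested here and not called. For Itga3, Itga7, Lamb3, Itgb7 and Itgb3bp the tables list different numbers of transcripts, so their levels are not comparable between tables.

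Genes that make, bind or process matrix outside the pattern were read from 5 lists. In the list of pericellular proteolysis, Ctsl, a lysosomal protease, averaged 17.5 ± 3.46 CPM in PA/OA cells and 9.74 ± 1.54 CPM in control cells (SD, n = 3 each), and the groups did not overlap. It rose by 0.85 ± 0.24 (log2, edgeR adjusted p 0.0488), a call kept in 1 of the 6 fits that left out a sample.

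The counts of the other lists stand beside 2.82% of all genes called higher. Of 15 other matrix glycoproteins and proteoglycans, 2 rose and none fell. These were the matricellular proteins Cyr61, with 811, 718 and 714 CPM in PA/OA cells against 541, 540 and 550 CPM in control cells (log2 0.46 ± 0.07, edgeR adjusted p 0.000192), and Ctgf, with 720, 716 and 723 CPM in PA/OA cells against 575, 615 and 592 CPM in control cells (log2 0.28 ± 0.06, edgeR adjusted p 0.0121). The Ctgf call was lost without control 1 (adjusted p 0.0756). Of 12 genes of collagen biosynthesis, 2 rose and none fell: Colgalt1, which adds galactose to collagen, by 0.41 ± 0.07 (adjusted p 0.00177), and Mia2, which takes part in export of large cargo from the endoplasmic reticulum, by 0.39 ± 0.11 (adjusted p 0.0415, called in 1 of 6 fits without a sample). None of 16 focal adhesion adaptors and none of 11 TGF-beta ligands, receptors and Smads was called by edgeR. The medians of these last 4 lists were 0.14, -0.03, 0.09 and 0.07 (log2), in the order in which they are named here, against 0.01 over all genes.

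Marker lists differed between these groups as well. The summed level of 5 listed hepatocyte markers of 10 was 809 to 906 CPM in PA/OA cells and 562 to 651 CPM in control cells. Trf and Apob, the apolipoprotein B gene, carried this sum, with 4401, 5079 and 5058 counts of Apob in PA/OA cells, against 2455, 2588 and 2486 in control cells. The other 3 listed hepatocyte markers were lower in PA/OA cells or overlapped. Ttr, the transthyretin gene, had 125, 111 and 64 counts in PA/OA cells, against 422, 233 and 417 in control cells, and the hepatocyte regulator Hnf4a had 157, 157 and 111 counts in PA/OA cells, against 246, 251 and 158 in control cells. The Hnf4a counts, not scaled for depth, were apart by only 157 against 158. The 2 PA/OA samples with 157 had 25887076 and 24912692 listed counts, and the control with 158 had 26576151. Scaled for depth, the Hnf4a groups therefore overlapped. Alb, given above, overlapped too. The summed level of 4 cholangiocyte markers of 6 was 1568 to 1711 CPM in PA/OA cells and 1993 to 2135 CPM in control cells. Macrophage markers, 3 of 8 listed, gave 674 to 816 CPM in PA/OA cells and 587 to 626 CPM in control cells. The macrophage sums here and below were not broken down by gene, so they do not establish that macrophages were present. Des, the desmin gene, was the 1 listed stellate cell or fibroblast marker of 10. It gave 5.42 to 8.96 CPM in PA/OA cells and 2.94 to 5.71 CPM in control cells, so this value is that of a single gene. No endothelial or blood marker was listed. The part of all these markers in the rise of the 5 members was not tested.

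Between Ang(1-7) and PA/OA cells no member was called. The table held all 61 members, of which 49 passed the filter on low counts, and edgeR called none of them and 0 of 9261 genes (0.0%). None of the 49 had an unadjusted p under 0.05, against 236 genes or 2.55%, and DESeq2 called 5 genes, none of them a member. The groups did not overlap, with Ang(1-7) higher, in 3 members (Col1a1, Col12a1 and Timp1) or 6.12%, against 4.6% of all genes. With Ang(1-7) lower it was 5 members (Mmp14, Col4a2, Itga3, Itgav and Col4a3bp) or 10.2%, against 6.37% of all genes. The median log2 difference was 0.03 over the members and -0.01 over all genes.

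Of the 5 genes that had risen with fatty acids, all but Mmp14 had Ang(1-7) values that overlapped those of PA/OA cells. Itga2 had 749, 1021 and 758 CPM in Ang(1-7) cells, against 662, 792 and 700 CPM in PA/OA cells, and the groups overlapped (log2 0.23, 95% interval -0.10 to 0.56). Itga1 had 377, 626 and 417 CPM in Ang(1-7) cells, against 376, 406 and 338 CPM in PA/OA cells (0.34, -0.08 to 0.76). In both genes Ang(1-7) 2 was far above the other 5 samples.

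Lamc1 had 604, 706 and 638 CPM in Ang(1-7) cells, against 583, 653 and 572 CPM in PA/OA cells (log2 0.11, 95% interval -0.15 to 0.36). Col6a1 had 75.7, 74.8 and 87.3 CPM in Ang(1-7) cells, against 88.3, 85.7 and 85.4 CPM in PA/OA cells (-0.12, -0.42 to 0.17). Mmp14 had 356, 263 and 378 CPM in Ang(1-7) cells, against 419, 400 and 387 CPM in PA/OA cells, where all Ang(1-7) samples were lower (-0.27, -0.60 to 0.06). A fall as large as the estimated rise in PA/OA over control cells lay within the interval for Mmp14. It lay outside the interval for Itga2, Itga1, Lamc1 and Col6a1, in comparisons that share the PA/OA samples. The rises were themselves uncertain, with 95% intervals from 0.12 upward for Lamc1 and from 0.35 upward for Col6a1. Falls of those sizes lay within the intervals of these genes here. Without Ang(1-7) 2, the log2 difference was 0.08 for Itga2 and 0.10 for Itga1.

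Of further members, most of them those with the highest CPM in their class, Itgb1 had 3135, 4285 and 3206 CPM in Ang(1-7) cells, against 3050, 3124 and 3371 CPM in PA/OA cells (log2 0.16 ± 0.14). Timp2 had 707, 714 and 702 CPM in Ang(1-7) cells, against 706, 752 and 722 CPM in PA/OA cells (log2 -0.04 ± 0.10). Col4a2 had 860, 546 and 820 CPM in Ang(1-7) cells, against 956, 924 and 876 CPM in PA/OA cells (-0.31 ± 0.17). Of these 3, Col4a2 alone was apart between the groups, with Ang(1-7) 2 well below the rest. Adamts1 had 154, 186 and 176 CPM in Ang(1-7) cells, against 181, 171 and 166 CPM in PA/OA cells (-0.01 ± 0.12), and Itgav had 13.1, 14.2 and 13.4 CPM in Ang(1-7) cells, against 15.4, 17.6 and 15.4 CPM in PA/OA cells (-0.25 ± 0.21). Loxl3 had 336, 294 and 372 counts in Ang(1-7) cells, against 349, 345 and 267 counts in PA/OA cells (0.03 ± 0.24). The edgeR adjusted p of these 6 genes lay between 0.965 and 0.994.

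The largest estimates in this comparison came from members with few counts. Col1a1, a chain of type I collagen, had 36, 40 and 30 counts in Ang(1-7) cells, against 0, 15 and 0 counts in PA/OA cells. It was above PA/OA in all 3 samples, Ang(1-7) 1 included (log2 2.77 ± 1.52, edgeR adjusted p 0.965). Thbs2, a thrombospondin, had 0, 35 and 16 counts in Ang(1-7) cells, against 0, 11 and 0 in PA/OA cells (2.13 ± 1.92), and the aggrecan-cutting protease Adamts4 had 5, 24 and 22 counts in Ang(1-7) cells, against 0, 9 and 10 in PA/OA cells (1.36 ± 1.40). Timp1 had 37, 37 and 39 counts in Ang(1-7) cells, against 28, 23 and 17 counts in PA/OA cells, apart but by little (0.70 ± 0.69).

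On the lower side stood Itga3, the alpha subunit of a laminin receptor, with 126, 10 and 156 counts in Ang(1-7) cells, against 203, 217 and 188 counts in PA/OA cells (log2 -1.08 ± 0.72). Itgb3 had 50, 15 and 22 counts in Ang(1-7) cells, against 83, 79 and 21 counts in PA/OA cells (-1.08 ± 0.75). Col4a3bp, which encodes a ceramide transfer protein and no collagen, had 21, 8 and 13 counts in Ang(1-7) cells, against 26, 50 and 23 counts in PA/OA cells (-1.25 ± 0.87). Col27a1, the fibrillar collagen with the most counts here, had 49, 20 and 97 counts in Ang(1-7) cells, against 138, 111 and 43 counts in PA/OA cells (-0.85 ± 0.65). None was called, and Itga3 and Col4a3bp were the 2 of these 4 whose groups did not overlap.

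The members that were measured only in this table were mostly of low level. The ADAMTS proteases other than Adamts1 had group means of at most 3.17 CPM in Ang(1-7) cells. The one of them with the most counts, Adamts6, had 113, 83 and 52 counts in Ang(1-7) cells, against 27, 53 and 77 counts in PA/OA cells, and the groups overlapped. Mmp10, a stromelysin, had 69, 111 and 34 counts in Ang(1-7) cells, against 0, 35 and 76 counts in PA/OA cells. The laminin alpha chain Lama5 had 53, 27 and 91 counts in Ang(1-7) cells, against 22, 67 and 34 counts in PA/OA cells. The type VI chain Col6a2, whose protein joins Col6a1, had 56, 8 and 67 counts in Ang(1-7) cells, against 73, 34 and 13 counts in PA/OA cells. In each of these the samples of a group varied by more than the groups differed. By class, 25 of the 49 tested members had log2 differences above 0, or 51.0%, against 49.1% of all genes.

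Ang(1-7) 2 stood at an end of the 6 values in most members, as in most genes. It was the highest of the 6 libraries for 17 of the 49 members and the lowest for 19, together 73.5%, against 65.7% of all genes tested. Among the 35 members with a mean of at least 50 counts it was 80.0%, against 69.3% of the 6819 genes at that level. PA/OA 1 was the highest or lowest library for 51.0% of the 49 members, against 35.7% of all genes. Ties that included PA/OA 1, as at 0 counts, were credited to it. With a mean of at least 50 counts its shares were 45.7% of members and 34.8% of all genes. None of these differences was tested. Sparc had 1018, 135 and 1154 counts in Ang(1-7) cells, against 879, 877 and 975 counts in PA/OA cells, so that Ang(1-7) 2 was several times below every other sample while the other Ang(1-7) samples were above all of PA/OA. The log2 difference of Sparc was -0.27 ± 0.58, and without Ang(1-7) 2 it was 0.245 ± 0.145 (edgeR adjusted p 0.9995). Thbs1, a thrombospondin that can activate latent TGF-beta, had 340, 1478 and 393 counts in Ang(1-7) cells, against 365, 462 and 534 in PA/OA cells, and was high in Ang(1-7) 2 alone. Itga5, the alpha subunit of the fibronectin receptor, had 61, 10 and 96 counts in Ang(1-7) cells, against 75, 47 and 67 in PA/OA cells.

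**Figure D4:**
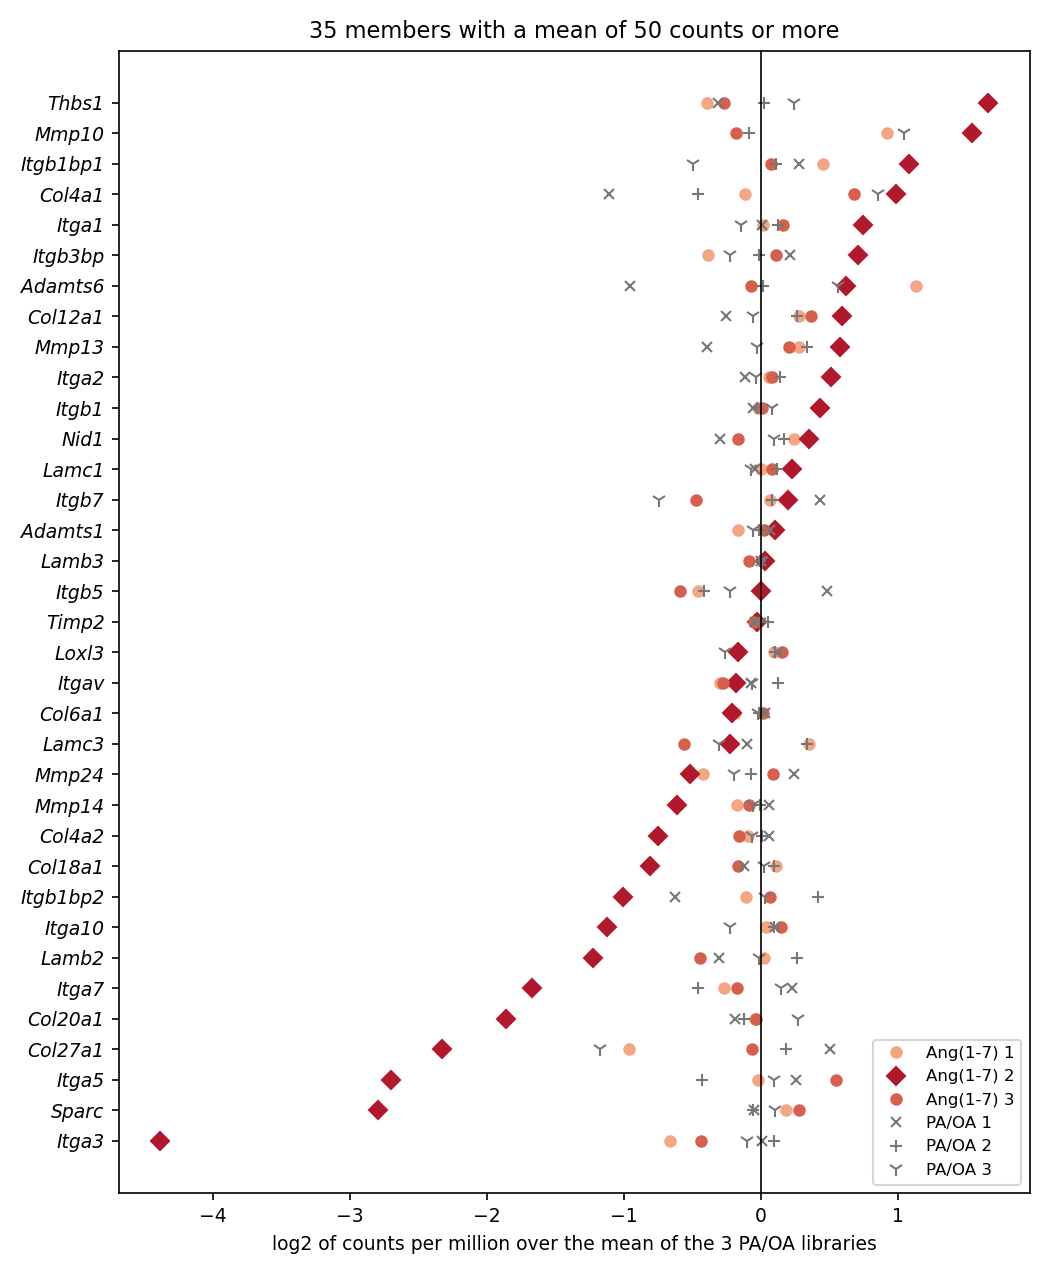
Level of the 35 members with a mean of at least 50 counts in each of the 6 fatty acid libraries, as log2 of CPM over the PA/OA mean, ordered by Ang(1-7) 2 (dark diamonds). Ang(1-7) 2 is the highest or lowest library for 80.0% of them, against 69.3% of all genes at that level, and Itga3, Sparc and Itga5 lie furthest below. Mmp10 in PA/OA 1, with 0 counts, is not drawn.

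Some members had counts in Ang(1-7) 2 and 3 but none in Ang(1-7) 1 or in any PA/OA sample. Timp3, a TIMP that binds to the matrix, had 102 and 81 counts in these 2 libraries. The fibrillar collagen chain Col3a1 had 71 and 31 counts, the type I chain Col1a2 had 28 and 30, and the integrin subunit Itgb8 had 54 and 30. All 4 were under the filter on low counts and were not tested.

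The same libraries carried markers of nervous tissue. The summed level of 15 listed nervous markers of 28, a list that leaves out Mbp and was cut so after values were seen, was 3.60, 139.5 and 76.4 CPM in Ang(1-7) cells, against 2.67 to 3.28 CPM in PA/OA cells. Neurofilament Nefl had 0, 923 and 477 counts in Ang(1-7) cells and 0 in every PA/OA sample, and the astrocyte gene Gfap had 12, 888 and 378 counts in Ang(1-7) cells and 0 in PA/OA cells. With Mbp, 16 of 29 were listed, and the sums were 129, 249 and 214.5 CPM in Ang(1-7) cells and 134 to 139 CPM in PA/OA cells. Blood markers, 2 of 6 listed, gave 0, 4.01 and 2.45 CPM in Ang(1-7) cells and 0 to 0.159 CPM in PA/OA cells.

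Stellate cell or fibroblast markers, 2 of 10 listed, gave 7.11, 15.5 and 11.6 CPM in Ang(1-7) cells, against 5.38 to 9.22 CPM in PA/OA cells, and endothelial markers, 2 of 8, gave 0.0382 to 1.81 CPM in Ang(1-7) cells and 0.274 to 0.845 CPM in PA/OA cells. Cholangiocyte markers, 5 of 6, gave 1705, 1135 and 1599 CPM in Ang(1-7) cells, against 1562 to 1707 CPM in PA/OA cells. Hepatocyte markers, 7 of 10, gave 847, 1070 and 905 CPM in Ang(1-7) cells and 804 to 900 CPM in PA/OA cells, and macrophage markers, 3 of 8, gave 701 to 802 CPM in Ang(1-7) cells and 670 to 811 CPM in PA/OA cells. The part of other cells' RNA in the values of Timp3, Col3a1, Col1a2, Itgb8 and the other members was not tested. The 12 members under the filter were these 4 with Col4a3, Col6a3, Itga11, Loxl1, Loxl4, Mmp11, Mmp15 and Mmp28. Apart from these 4, none of the 12 had more than 47 counts in a library.

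Between Ang(1-7) and control cells, edgeR called none of the 30 members tested, where 15 of 6134 genes (0.245%) were called, all higher. An unadjusted p under 0.05 was met by 8 members or 26.7%, against 14.9% of all genes. The groups did not overlap, with Ang(1-7) higher, in 10 members or 33.3%, against 13.2% of all genes. These were Itga2, Itga1, Itgav, Itgb1, Itgb1bp1, Col6a1, Col12a1, Lamc1, Mmp13 and Timp2. With Ang(1-7) lower it was Col18a1 and Itga7, or 6.67%, against 13.3% of all genes. The control samples are the same as in the comparison of PA/OA with control, so the 2 comparisons are not independent.

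Itga2 had 748, 995 and 751 CPM in Ang(1-7) cells, against 513, 548 and 503 CPM in control cells (log2 0.67 ± 0.13, edgeR adjusted p 0.0992). Mmp13 had 19.5, 23.5 and 18.4 CPM in Ang(1-7) cells, against 10.9, 11.5 and 7.56 CPM in control cells (1.03 ± 0.25, adjusted p 0.142). In both genes every Ang(1-7) sample was above every control sample, and DESeq2 called both (adjusted p 0.00308 for Itga2), with 259 genes or 4.22% called by it in all. Lamc1 differed by 0.37 ± 0.10, Col6a1 by 0.45 ± 0.13, Itga1 by 0.61 ± 0.18 and Itgb1 by 0.31 ± 0.13 on the log2 scale, with edgeR adjusted p-values of 0.182, 0.188, 0.190 and 0.304. Mmp14 had 355, 256 and 374 CPM in Ang(1-7) cells, against 293, 324 and 325 CPM in control cells, with Ang(1-7) 2 below all controls and the other samples above them (0.07 ± 0.15).

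Without Ang(1-7) 2, 6 members were called higher in Ang(1-7) than in control cells, and 10.2% of all genes were called, 5.22% higher. Itga2 differed by 0.52 (log2, edgeR adjusted p 6.98e-05), Itga1 by 0.37 (0.00693), Lamc1 by 0.31 (0.00997), Col6a1 by 0.49 (0.0151), Mmp13 by 0.92 (0.0286) and Itgb1 by 0.16 (0.0472). Without both libraries that carried nervous markers, 1 Ang(1-7) sample was left, assumed to vary like the controls, and Itga2 alone was called (0.52, adjusted p 0.000944), with 3.73% of all genes. Hepatocyte markers, 5 of 10 listed, summed to 852, 1074 and 910 CPM in Ang(1-7) cells, against 562 to 651 CPM in control cells, again through Trf and Apob. Hnf4a had 118, 104 and 179 counts in Ang(1-7) cells, against 246, 251 and 158 in control cells, and Ttr had 78, 353 and 173 counts in Ang(1-7) cells, against 422, 233 and 417 in control cells. The sum of cholangiocyte markers, 4 of 6 listed, was 1714, 1141 and 1607 CPM in Ang(1-7) cells, against 1994 to 2138 CPM in control cells. Nervous markers without Mbp, 6 of 28, gave 2.24, 115 and 61.8 CPM in Ang(1-7) cells and 1.02 to 2.99 CPM in control cells. The part of these markers in the member values was not tested.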

How the data were processed

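Total RNA of 9 AML12 samples was purified by Qiazol and miRNeasy, per the labels' protocols. The authors deposited whole-number read counts per RefSeq transcript, in 1 table per pair of groups. The submitters' processing notes list bcl2fastq, HISAT2 2.2.5 and HTSeq 0.11.2. They also list a human build although the transcripts are from mouse, so no coordinates are taken from the files. Which annotation release, strand setting and handling of shared reads were used is not given in the sources used here. PA/OA against control had 6936 transcripts, Ang(1-7) against PA/OA 14553 and Ang(1-7) against control 6828, with lowest mean counts of 56.8, 5.17 and 59.5. The log2 fold changes and p-values that the authors deposited beside the counts were not used.

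Counts were summed per gene. Each table was fitted by itself with the quasi-likelihood method of edgeR 4.0.16 (R 4.3.3), after TMM scaling and filterByExpr and with no replicate term. Benjamini-Hochberg adjustment ran over every gene tested, 6213, 9261 and 6134 in the 3 tables, and 0.05 was the threshold. Errors of log2 differences are standard errors, those of levels SD, and intervals are 95%. The biological coefficient of variation, 22.4%, 44.3% and 30.7%, limits the precision beside depth. The fitting was tested on simulated counts. Groups and numbers came from the labels. Alternatives were DESeq2 1.42.0, its size factors in edgeR, no filter, curated transcripts, the replicate number as a block, each sample left out, Ang(1-7) 2 and 3 left out, and 1 fit of all 9 samples.

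Members, lists and rules were chosen with earlier results of these data known. Any member could be named. Called members, the highest of each of 11 classes, several fixed symbols and the 3 largest rises and falls in Ang(1-7) against PA/OA have their values in every sample in at least 1 comparison. From the lists of related genes only called ones are named, and some results of these lists are not reported here. The bound of 1000 counts, the nervous list without Mbp and the promoters printed were chosen after values were seen.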

Additional observations from a re-analysis of the deposited data

How the results depend on the processing

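Calls between PA/OA and control cells depended on the samples used. All genes called numbered 314, against 533 with DESeq2, 33 in 1 fit of all 9 samples and 99 to 397 when a sample was left out (99 for control 1, 134 for PA/OA 3, 147 for PA/OA 2 and 200 for control 3), and members called numbered 5, against 0 and 2 to 5 in the last 2 settings. Between Ang(1-7) and PA/OA cells 0 genes were called, 5 with DESeq2 and 0 to 18 when a sample was left out (18 for Ang(1-7) 1). Between Ang(1-7) and control cells 15 genes were called, 259 with DESeq2, 27 on curated transcripts, 229 without Ang(1-7) 2 and 3, 100 in 1 fit of all 9 samples and 4 to 624 when a sample was left out (4 for any control, 7 for Ang(1-7) 3, 32 for Ang(1-7) 1 and 624 for Ang(1-7) 2). Members called there numbered 0, 2 with DESeq2, 1 without Ang(1-7) 2 and 3, 1 (Itga2, adjusted p 0.0243) with all 9 samples and 0 to 6 when a sample was left out (6 for Ang(1-7) 2).

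The replicate number, which no label explains, did not pair the samples: same-numbered samples correlated at -0.035 to 0.034 in their deviations from group means. With it as a block, 303, 0 and 10 genes were called in PA/OA against control, Ang(1-7) against PA/OA and Ang(1-7) against control, with 4, 0 and 0 members. Itga1 was not called with the block (adjusted p 0.0735) nor with DESeq2 size factors in edgeR (0.0552). The cause was not tested.

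Some log2 differences that were not called changed sign. Over the fits that left out a sample, Col4a1 ranged from -1.104 to 0.445 and Sparc from -0.066 to 0.307 in PA/OA against control. In Ang(1-7) against PA/OA the ranges were -0.055 to 0.064 for Adamts1, -0.082 to 0.135 for Loxl3 and -0.645 to 0.245 for Sparc, and in Ang(1-7) against control -0.265 to 1.005 for Col4a1, -0.036 to 0.217 for Mmp14 and -0.582 to 0.294 for Sparc. Adamts1 was 0.01 in Ang(1-7) against PA/OA with DESeq2 and with its size factors. Without Ang(1-7) 2 and 3, Col4a1 was -0.103, Itgb1 -0.012 and Sparc 0.192 against PA/OA, and Col4a1 was -0.469, Col4a2 0.028 and Sparc 0.251 against control. The cause was not tested. Low counts limit most members outside the highest of each class, and 12 of the 61 could not be tested at this depth between Ang(1-7) and PA/OA cells.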
